A study of Mus musculus with 51 samples.

Results

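Jade1, written Phf17 in the deposited tables, was followed together with its surroundings on chromosome 3, from 41.47 to 41.66 Mb of GRCm38. Peaks and windows were chosen by position alone, in every cross, tissue and mark. The stretch held 21 of the 150793 peaks of the 6 allelic tables and 190 of the 2462755 windows of 1 kb in the table of total signal. In extra-embryonic ectoderm (ExE) these peaks were 4 of H3K4me3, 3 of H3K27me3 and 4 of H3K36me3, and in epiblast they were 8 of H3K4me3, 0 of H3K27me3 and 2 of H3K36me3. Of the 21 peaks, 16 were informative, meaning that 20 reads or more fell on an allele in some wild-type library.

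The chromatin came from mouse embryos at embryonic day 6.5, whose epiblast and ExE were separated by hand and pooled over several embryos, and native chromatin of each pool was divided between the antibodies. Wild-type embryos were reciprocal F1 hybrids of C57BL6/Babr (B6) and CAST/Ei (CAST), named B6/CAST and CAST/B6 with the mother written first. In matDKO/CAST, CAST males were mated to mothers of mixed B6 and 129 background with floxed Dnmt3a and Dnmt3b and a Zp3-cre transgene, which is active in growing oocytes. These embryos inherited a deleted maternal copy of both methyltransferase genes and an oocyte genome without the methylation those enzymes lay down, and a wild-type paternal copy, so they can methylate DNA after fertilization. Each cross, tissue and mark had 2 libraries, and nothing in the labels gives the sex of the embryos. Because every library is a pool of cells, fewer cells with a mark and less mark per cell cannot be told apart.

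Imprinted genes carry active chromatin mainly on the allele from 1 parent. Most keep this bias through DNA methylation laid down in the egg or sperm, whereas at some genes of extra-embryonic tissues the paternal bias needs no such methylation from the oocyte, which is called non-canonical imprinting. H3K4me3 marks active start sites, H3K36me3 is laid down along transcribed gene bodies, and H3K27me3 is the mark of Polycomb repression. Jade1 encodes a PHD finger scaffold protein of the HBO1 (Kat7) histone acetyltransferase complex. Its neighbours were the long non-coding RNA genes Gm40040, Platr4 and 2400006E01Rik and the pseudogene Gm6069 upstream, Gm31266 antisense within Jade1, and downstream Sclt1, which encodes a protein of the centriole's distal appendages, with the unclassified entry Gm38047 inside it.

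GENCODE places Jade1 on the plus strand from 41555731 to 41616864 (ENSMUSG00000025764.14), a length of 61.1 kb, and its transcripts begin at separate places. A first group of 3 transcripts starts at 41555731 to 41555760, and a second group of 6 starts 7.64 to 9.19 kb further on. Distances are counted in kb from the first start. RefSeq promoter sequences on GRCm38.p6, from 250 bases before to 50 after a start, were found for 3 of the 8 genes of the stretch, in 6 entries. The following 4 of the 5 that lie under the H3K4me3 peaks below are shown, the promoter of 2400006E01Rik, that of the first Jade1 start and those of its later starts with the most CpG, written 5′ to 3′ on the strand of the gene with each CpG in capitals.
2400006E01Rik, chr3:41528425-41528724, minus strand: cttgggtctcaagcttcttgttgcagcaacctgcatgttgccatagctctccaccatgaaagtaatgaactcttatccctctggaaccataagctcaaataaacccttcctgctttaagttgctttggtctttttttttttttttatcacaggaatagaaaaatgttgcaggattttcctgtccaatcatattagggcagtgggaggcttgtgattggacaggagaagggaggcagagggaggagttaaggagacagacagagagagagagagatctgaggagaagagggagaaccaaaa
Jade1 first start, chr3:41555484-41555783, plus strand: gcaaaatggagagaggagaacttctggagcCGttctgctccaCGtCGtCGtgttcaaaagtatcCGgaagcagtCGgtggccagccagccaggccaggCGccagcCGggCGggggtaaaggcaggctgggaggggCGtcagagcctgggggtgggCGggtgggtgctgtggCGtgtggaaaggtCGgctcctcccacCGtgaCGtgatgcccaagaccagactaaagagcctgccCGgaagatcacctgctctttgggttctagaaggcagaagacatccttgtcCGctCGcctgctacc
Jade1 later start, chr3:41563501-41563800, plus strand: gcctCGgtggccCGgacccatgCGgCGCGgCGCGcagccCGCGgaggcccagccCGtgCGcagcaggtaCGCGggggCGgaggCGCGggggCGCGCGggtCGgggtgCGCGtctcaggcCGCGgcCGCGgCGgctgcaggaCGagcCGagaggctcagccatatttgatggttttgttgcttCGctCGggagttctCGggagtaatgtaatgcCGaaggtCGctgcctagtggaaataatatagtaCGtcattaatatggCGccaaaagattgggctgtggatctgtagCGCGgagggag
Jade1 last of the later starts, chr3:41564630-41564929, plus strand: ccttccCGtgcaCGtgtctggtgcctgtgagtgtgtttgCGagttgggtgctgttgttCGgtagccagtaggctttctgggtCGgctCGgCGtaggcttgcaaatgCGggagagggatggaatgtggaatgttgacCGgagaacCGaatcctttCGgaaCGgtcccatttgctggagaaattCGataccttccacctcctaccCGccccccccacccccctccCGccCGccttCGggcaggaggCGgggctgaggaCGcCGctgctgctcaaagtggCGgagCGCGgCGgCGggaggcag

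The 2400006E01Rik promoter held 0 CpG, as did 5.43% of the 32851 promoters in the table, whose median was 7, and 77% of its letters were marked as repeats in the genome file. The Jade1 promoters held 18 CpG at the first start and 14, 38 and 25 at the later ones, in order of position. Neither TGCCGC, the core letters bound by ZFP57, nor its reverse complement was in any of the 6 entries, and 11.6% of all promoters held it. At the first Jade1 start GGGCGG (a GC box, in 35.7% of all promoters) and CGGAAG (an ETS motif, in 16.9%) occurred 2 times each, counted on both strands. Platr4, Gm40040, Gm6069, Gm31266 and Gm38047 are named only.

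The H3K4me3 libraries gave 2.70 to 6.82 M allelic reads in ExE and 1.12 to 6.06 M in epiblast, with paternal shares over all autosomal peaks of 47.1 to 50.8% and 47.3 to 50.6%. The inputs held 1.10 to 1.37 times their autosomal mean over the stretch in 10 wild-type libraries and 1.13 to 1.22 times in 5 of matDKO/CAST. At the start sites of 8 epiblast genes, Pou5f1 among them, summed H3K4me3 was 65.8 to 105 RPKM in ExE and 143 to 219 RPKM in epiblast. For 8 ExE genes the ranges were 98.2 to 156 and 76.7 to 118 RPKM, and for 8 genes of the visceral endoderm, the tissue that lies against both, 43.0 to 77.9 and 38.8 to 60.2 RPKM, with none of the 24 genes at 0 throughout a tissue. Of the 8 visceral endoderm genes, 4 were above in every ExE library, such as Apoa1 (6.07 to 9.39 against 1.94 to 4.81 RPKM) and Ttr (4.83 to 8.47 against 1.73 to 4.46 RPKM), and 2, Foxa1 and Sox17, were below. Of the epiblast genes 0 were above and 5 below, and of the ExE genes 2 were above and 1 below. Fgf4 and Elf5 were below 1 RPKM in every library of both tissues, and Esrrb in every ExE library. These levels moved with tissue, and their part in the differences between ExE and epiblast below was not tested.

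The first comparison asked which parental allele carries H3K4me3 over Jade1 in ExE. A single peak spanned all of its early starts, from 41550001 to 41592000 (42 kb, or -5.73 to 36.3 kb). B6/CAST libraries gave 1108 paternal and 605 maternal reads in replicate 1 and 692 and 410 in replicate 2. CAST/B6 gave 661 and 189 reads in replicate 1 and 625 and 196 in replicate 2. The matDKO/CAST libraries gave 623 and 393 reads in replicate 2 and 387 and 159 in replicate 3. The paternal allele was ahead in 6 of 6 libraries, with a total of 4096 paternal and 1952 maternal reads, so the maternal allele was marked as well. The paternal share ranged from 61.3% (95% Wilson interval 58.3 to 64.3%, which covers counting error only) in matDKO/CAST replicate 2 to 77.8% (74.8 to 80.4%) in CAST/B6 replicate 1.

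Fitted per cross over 2 libraries with edgeR, the log2 ratio of paternal to maternal reads at this peak was 0.87 ± 0.08 (SE) in B6/CAST (adjusted p = 4.52e-09) and 1.70 ± 0.09 in CAST/B6 (adjusted p = 3.56e-14). A peak past an adjusted p of 0.05 in both wild-type crosses with the same parent higher was called imprinted. In matDKO/CAST the log2 ratio was 1.03 ± 0.21 (adjusted p = 0.0183), which met the rule for a retained bias. The bias in matDKO/CAST minus that in B6/CAST was 0.15 ± 0.22 on the log2 scale (edgeR adjusted p = 1.00), so a difference was not shown. With a library left out this difference ran from -0.039 to 0.46. Where 1 library was left out, the 3 crosses were fitted together so that all of them gave the spread, and the lone library of a cross was assumed to vary like the others. With all 6 libraries this fit gave a B6/CAST log2 ratio of 0.87 (adjusted p = 3.93e-05). Without B6/CAST replicate 1, which held the most reads at this peak, it gave 0.80 (adjusted p = 0.0915), so the size was close and the threshold was not reached.

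The Jade1 bias was larger where B6 was the father. In the joint fit of both wild-type crosses the parent term was 1.26 ± 0.06 (adjusted p = 1.40e-23), and the strain term, positive where the B6 allele is higher, was 0.40 ± 0.06 (adjusted p = 1.63e-06), where 9.65% of informative peaks passed with B6 higher. The ranges of the paternal share, 62.8 to 64.7% in B6/CAST and 76.1 to 77.8% in CAST/B6, did not overlap. Without any 1 of the 4 wild-type libraries the strain term stayed between 0.36 and 0.46 with adjusted p of 0.0521 to 0.146, against 0.43 and 0.00321 with all 6 libraries in that fit.

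The paternal bias was also seen upstream at the start sites of the long non-coding RNA genes 2400006E01Rik and Platr4, whereas Gm40040 had no H3K4me3 peak at its start. The peak from 41526501 to 41535500 holds the start of 2400006E01Rik, which reads away from Jade1 and begins 27.3 kb before it. It gave 142 paternal and 65 maternal reads in replicate 1 and 115 and 56 in replicate 2 of B6/CAST. In CAST/B6 the reads were 102 and 9 in replicate 1 and 99 and 8 in replicate 2. In matDKO/CAST they were 93 and 38 in replicate 2 and 66 and 22 in replicate 3. The maternal allele was thus close to unmarked in CAST/B6, with a paternal share of 91.9 to 92.5%, and was marked at a lower level than the paternal allele in the other crosses, where the paternal share was 67.3 to 75.0%.

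At the 2400006E01Rik peak the edgeR estimates were 1.13 ± 0.18 for B6/CAST, 3.50 ± 0.28 for CAST/B6 and 1.52 ± 0.25 for matDKO/CAST on the log2 scale (adjusted p = 4.00e-05, 4.51e-10 and 0.00481). In the joint fit the parent term was 2.30 ± 0.17 (adjusted p = 7.52e-16) and the strain term, with B6 higher, 1.17 ± 0.18 (adjusted p = 2.29e-06). Within a library, its log2 ratio exceeded that of the Jade1 peak in 6 of 6 libraries, by 0.82 on average with a range of 0.25 to 1.88 (exact two-sided sign-flip test, p = 0.03125, the smallest possible, and 0.0417 adjusted over 4 such comparisons). These 4 comparisons were chosen after the values were seen.

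Platr4, a non-coding RNA gene named for its association with pluripotent cells, begins 62.5 kb before Jade1 on the minus strand. Its peak, from 41490001 to 41498500, gave 137 paternal and 73 maternal reads and then 63 and 45 in the replicates of B6/CAST. CAST/B6 gave 53 and 18, then 43 and 11, and matDKO/CAST gave 72 and 32, then 46 and 20. All 6 libraries leaned to the paternal allele, and the log2 ratios of 0.79 for B6/CAST, 1.68 for CAST/B6 and 1.29 for matDKO/CAST passed the test (adjusted p = 0.00623, 0.000592 and 0.0271). The mean difference from the Jade1 peak within a library was 0.02, with a range of -0.27 to 0.49 (exact sign-flip test, p = 0.906).

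Between them, the 3 kb peak from 41521001 to 41524000 in the 2400006E01Rik transcript passed no test for a bias, with 141 paternal and 143 maternal reads in all and log2 ratios of -0.08 for B6/CAST, 0.22 for CAST/B6 and 0.16 for matDKO/CAST (smallest adjusted p = 0.867). Its log2 ratio was below that of the Jade1 peak in 6 of 6 libraries, by -1.07 on average (exact sign-flip test, p = 0.03125, and 0.0417 adjusted over the 4 comparisons). This comparison too was chosen after the values were seen, so it restates the counts above. In total 3 of 4 informative H3K4me3 peaks were imprinted with the paternal allele higher, against 0.19% of the 23211 informative peaks in ExE, and these 3 were retained in matDKO/CAST, against 0.0689%. The bias in matDKO/CAST differed from that in B6/CAST at 0 of 4 peaks, against 0.892%, with 0 at an unadjusted p below 0.05 and 0 by DESeq2. In the fit of the 3 crosses together 3 peaks were imprinted and retained with all 6 libraries, 0 without B6/CAST replicate 1, which left that cross with 1 library, and 2 or 3 without any 1 of the others. At an adjusted p of 0.01, 1 peak was retained. By DESeq2, 2 of the 4 peaks were imprinted and 2 retained. In the joint fit the parent term passed at Jade1, 2400006E01Rik and Platr4 also when any 1 library was left out.

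**Figure D1:**
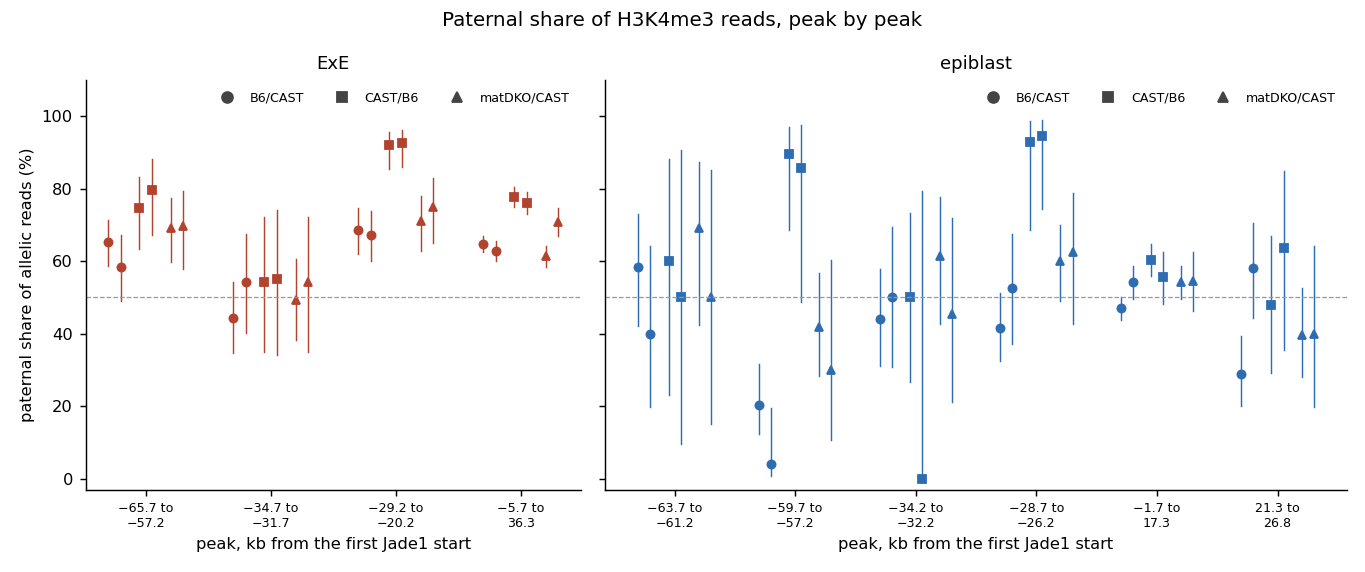
Paternal share of allelic H3K4me3 reads in percent (vertical axis) at each informative peak, placed by its distance in kb from the first Jade1 start, with 1 point per library and bars for the 95% Wilson interval (circles B6/CAST, squares CAST/B6, triangles matDKO/CAST). In ExE the Platr4, 2400006E01Rik and Jade1 peaks lie above 50% in 6 of 6 libraries and the 3 kb peak does not, while in epiblast the Jade1 peak, from -1.73 to 17.3 kb, lies between 47.0 and 60.3%.

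In epiblast no H3K4me3 peak of the stretch was imprinted. The peak over the Jade1 starts, from 41554001 to 41573000, gave 432 paternal and 488 maternal reads and then 253 and 214 in B6/CAST. CAST/B6 gave 277 and 182, then 100 and 80, and matDKO/CAST gave 255 and 216, then 77 and 64. The paternal allele was ahead in 5 of 6 libraries by less than in ExE, with a parent term of 0.24 ± 0.18 (adjusted p = 1.00). Of 6 informative peaks, 0 were imprinted by edgeR, also at an unadjusted p below 0.05 and by DESeq2, where 0.0787% of 20328 informative peaks were imprinted with the paternal and 0.0295% with the maternal allele higher.

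The 2400006E01Rik start in epiblast, from 41527001 to 41529500, gave 42 paternal and 59 maternal reads and then 20 and 18 in B6/CAST, and 48 and 32, then 15 and 9 in matDKO/CAST. In CAST/B6 it gave 13 and 1, then 17 and 1. The B6 allele was thus ahead in CAST/B6 while the alleles were near even in B6/CAST, and the joint fit gave a strain term of 2.16 ± 0.59 (adjusted p = 0.0266) and a parent term of 1.92 ± 0.60 (unadjusted p = 0.00377, adjusted p = 1.00). This peak had 32 allelic reads in CAST/B6, and without either replicate of that cross the adjusted p of the strain term was 0.0777 or 0.0889.

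A peak from 41496001 to 41498500, upstream of the Platr4 start, followed the strain in epiblast. It gave 13 paternal and 51 maternal reads, then 1 and 24, in B6/CAST and 17 and 2, then 6 and 1, in CAST/B6, so that B6 reads exceeded CAST reads in each of these 4 libraries. The strain term was 2.60 ± 0.58 (adjusted p = 0.00579; 0.142 without CAST/B6 replicate 2), and 2 of 6 informative epiblast peaks passed for the B6 allele, against 3.51%. With mothers of mixed B6 and 129 background, matDKO/CAST gave 18 and 25, then 3 and 7. The ExE peak at Platr4 covers this stretch and the Platr4 start together. The remaining epiblast peaks held 75 allelic reads at the Platr4 start, 124 in the 2400006E01Rik transcript, 237 from 21.3 to 26.8 kb inside Jade1, and 82 and 53 at the 2 that were not informative, and none passed a test.

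Over the whole stretch, with reads summed over the H3K4me3 peaks of a library and centred on its autosomal ratio, the log2 ratio was 0.90 and 0.79 in B6/CAST and 1.82 and 1.76 in CAST/B6 in ExE. In epiblast it was -0.25 and 0.07 in B6/CAST and 0.64 and 0.53 in CAST/B6. The lowest ExE library lay above the highest epiblast library, and the means differed by 1.07. At single peaks, the difference of ExE minus epiblast was 1.02 at the Jade1 starts, where ExE ranged from 0.80 to 1.76 and epiblast from -0.08 to 0.57 (exact permutation test of 4 against 4 wild-type libraries, two-sided, p = 0.0286, the smallest possible, and 0.0571 adjusted over 4 such comparisons). Without any 1 epiblast library the unadjusted p was 0.0571. The ExE and epiblast peaks compared are of unlike length, at 42 and 19 kb for Jade1. They are 8.5 and 2.5 kb for Platr4 and 9 and 2.5 kb for 2400006E01Rik. The difference of ExE minus epiblast was 1.10 at Platr4 (exact permutation test, p = 0.0571). At 2400006E01Rik it was 0.68 (exact permutation test, p = 0.543), with single libraries deciding its size (0.014 without epiblast B6/CAST replicate 1, 0.20 without epiblast B6/CAST replicate 2, 1.31 without epiblast CAST/B6 replicate 3) and 1.20 with 5 added to each count. There the CAST/B6 libraries of both tissues lay close together, at 3.43 and 3.55 in ExE and 3.17 and 3.54 in epiblast before centring.

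The total signal separated the Jade1 starts, which the allelic peak does not. Because this split was made after the values were seen, it is given as a description with no test. At the first start group, over the 3 windows from 41554001 to 41557000, H3K4me3 was 14.5 and 11.7 RPKM in B6/CAST and 10.0 and 12.8 RPKM in CAST/B6 in ExE. In epiblast it was 6.11 and 1.64 RPKM in B6/CAST and 1.52 and 2.54 RPKM in CAST/B6. The first start group was therefore higher in ExE by 4.15-fold on the means (12.3 ± 1.88 against 2.95 ± 2.16 RPKM, SD, n = 4), with no overlap.

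At the second start group, from 41562001 to 41566000, the tissues overlapped. ExE had 20.1 and 16.3 RPKM in B6/CAST and 15.9 and 22.2 RPKM in CAST/B6, and epiblast had 29.7 and 18.8 RPKM in B6/CAST and 27.9 and 25.0 RPKM in CAST/B6. On log2 of RPKM plus 0.5, ExE minus epiblast was 2.05 at the first group and -0.43 at the second. The difference of these differences was 2.48, and it was 2.22 with matDKO/CAST in both tissues. The matDKO/CAST libraries had 12.2 and 13.9 RPKM in ExE and 4.05 and 4.16 RPKM in epiblast at the first group.

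**Figure D2:**
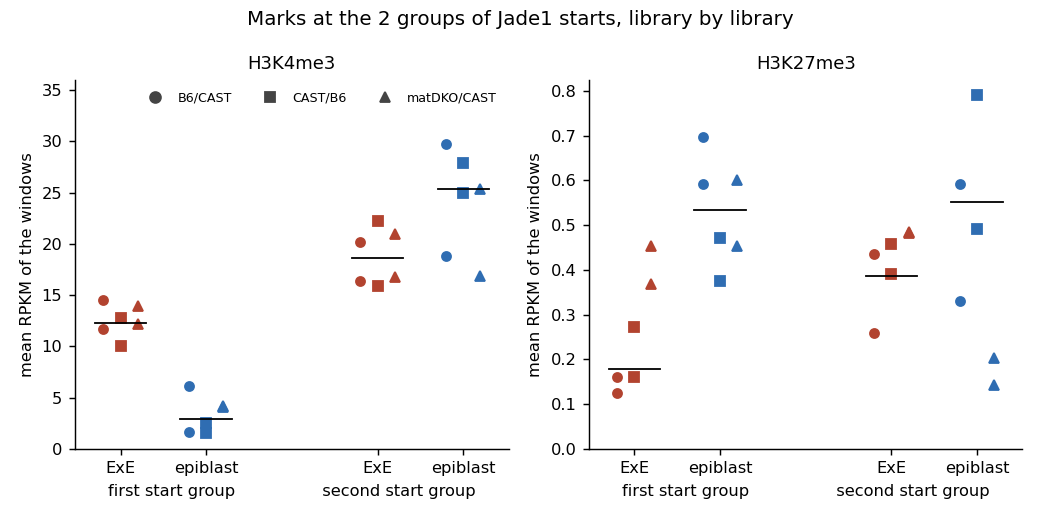
Mean RPKM of H3K4me3 (left) and H3K27me3 (right) in the windows of the first and second Jade1 start groups, 1 point per library (circles B6/CAST, squares CAST/B6, triangles matDKO/CAST) with a line at the wild-type mean of each tissue. H3K4me3 at the first group is 10.0 to 14.5 RPKM in wild-type ExE and 1.52 to 6.11 RPKM in epiblast, while at the second group the tissues overlap.

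Window by window, H3K4me3 peaked in ExE in the window centred 1.77 kb into Jade1, at 24.2 RPKM against 4.66 RPKM in epiblast, and in epiblast in the window centred at 8.77 kb, at 33.3 RPKM against 23.6 RPKM in ExE. Of 49 windows with a mean of at least 0.5 RPKM, 11 were higher in every wild-type ExE library than in every epiblast library (22.4%, against 13.2% of such windows genome-wide) and 1 was lower (2.04%, against 11.9%). The latter lay 10.8 kb into Jade1. Averaged over the whole 42 kb peak the tissues were not told apart, at 4.77 ± 0.98 RPKM in ExE and 3.77 ± 0.81 RPKM in epiblast (SD, n = 4; limma log2 difference 0.31 ± 0.16, adjusted p = 0.111). It passed with edgeR on the reads recovered from the RPKM (0.36, adjusted p = 0.00625) and after quantile normalization (0.55, adjusted p = 0.00161). With a library left out the difference was 0.14 to 0.47, the highest without epiblast B6/CAST replicate 1.

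The upstream peaks carried more total H3K4me3 in ExE. The Platr4 peak had 1.78 to 4.13 RPKM in wild-type ExE and 0.523 to 2.18 RPKM in epiblast, a log2 difference of 1.15 ± 0.18 (limma, adjusted p = 4.26e-06). The 2400006E01Rik start was higher by 0.73 ± 0.19 (adjusted p = 0.00179) and the 3 kb peak by 0.70 ± 0.20 (adjusted p = 0.00382). Thus 3 of 4 peaks passed with ExE higher, where 28.8% of 45650 peaks did, and 2 of 4 with the replicate number as a block, under which the 3 kb peak did not pass (0.47, adjusted p = 0.0521). Between matDKO/CAST and wild type 0 of 4 passed in either tissue by limma or edgeR, with 0 in ExE and 2 in epiblast at an unadjusted limma p below 0.05, against 0.322 and 0.182% of peaks higher and lower in ExE and 4.03 and 0.164% in epiblast.

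**Figure D3:**
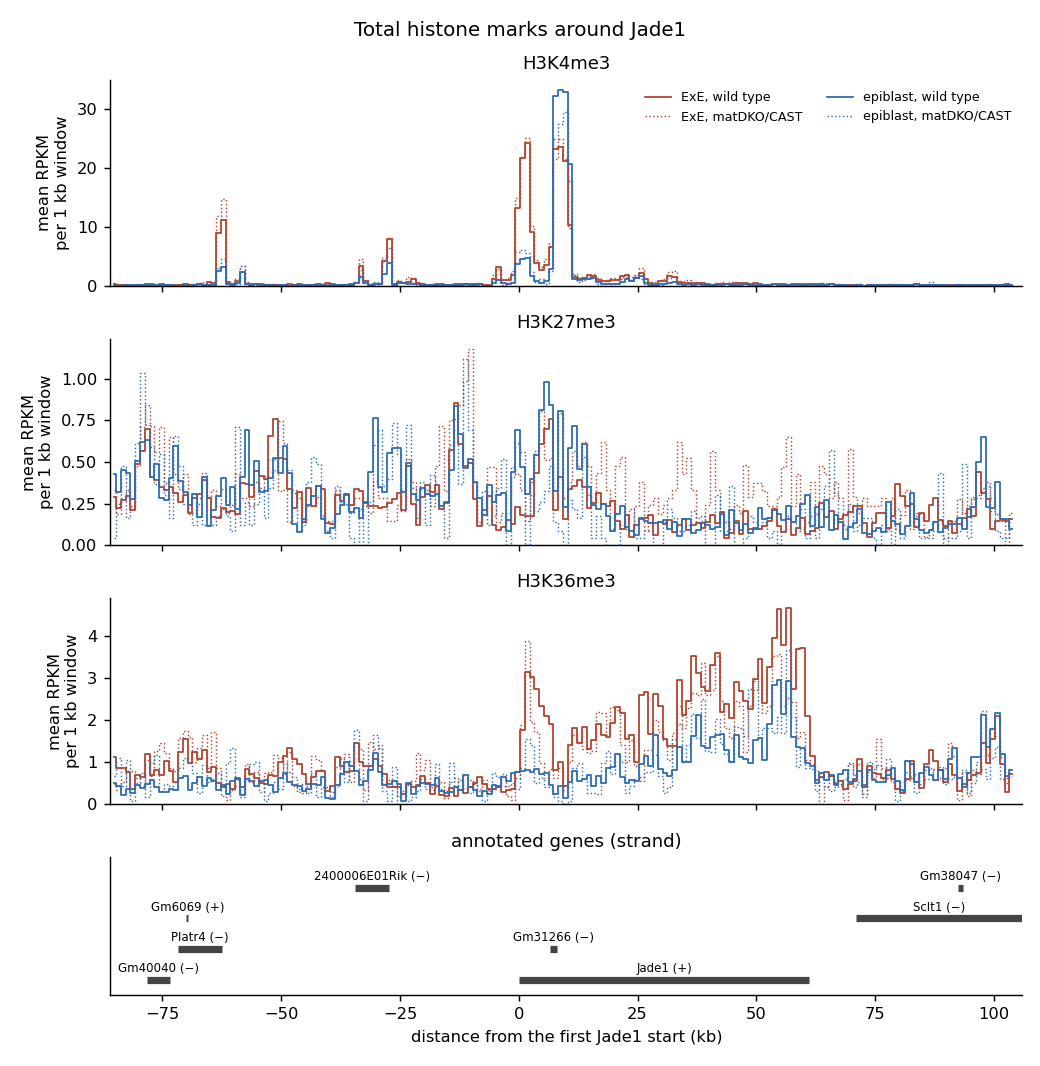
Mean RPKM per 1 kb window of H3K4me3, H3K27me3 and H3K36me3 (vertical axes) against distance from the first Jade1 start in kb, in ExE (red) and epiblast (blue), for 4 wild-type libraries (solid) and 2 matDKO/CAST libraries (dotted), with the annotated genes below. The ExE H3K4me3 profile has a summit at 1.77 kb (24.2 RPKM, against 4.66 RPKM in epiblast), and H3K36me3 over the Jade1 body is higher in ExE.

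H3K36me3 asked whether the bias reaches the transcribed body of the gene. In ExE a peak from 41555001 to 41633000 covered all of Jade1 and the end of Sclt1. It gave 433 paternal and 203 maternal reads and then 316 and 251 in B6/CAST. CAST/B6 gave 428 and 158, then 277 and 125, and matDKO/CAST gave 82 and 69, then 197 and 92. All 6 libraries had more paternal reads, and their paternal share ran from 54.3% (46.4 to 62.0%) in matDKO/CAST replicate 2 to 73.0% (69.3 to 76.5%) in CAST/B6 replicate 1.

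For H3K36me3 over Jade1 edgeR gave log2 ratios of 0.78 ± 0.10 (B6/CAST), 1.25 ± 0.11 (CAST/B6) and 0.90 ± 0.19 (matDKO/CAST) (adjusted p = 1.29e-13, 4.96e-28 and 0.00606), and the parent term was 1.01 ± 0.07 (adjusted p = 2.78e-34). The B6/CAST replicates lay at log2 ratios of 1.09 and 0.33, further apart than the SE of 0.10. This peak was the only 1 of 4 informative H3K36me3 peaks in ExE that was imprinted and retained, against 0.213 and 0.0752% of 7980. With the 3 crosses in 1 fit, the B6/CAST log2 ratio was 0.79 with all libraries (adjusted p = 6.99e-07) and 0.40 without its replicate 1 (adjusted p = 0.448). That of matDKO/CAST was 0.94 with all libraries (adjusted p = 0.000183) and 0.48 without its replicate 3 (adjusted p = 0.584). With DESeq2 neither the B6/CAST ratio of 0.74 nor the matDKO/CAST ratio of 0.87 passed (adjusted p = 0.953 and 0.329). The strain term was 0.23 ± 0.08 (adjusted p = 0.0323, where 4.37% of peaks passed with B6 higher), which did not pass with DESeq2 (0.25, adjusted p = 0.974), with the 3 crosses in 1 fit (0.22, adjusted p = 0.149), or without B6/CAST replicate 2 (0.02), CAST/B6 replicate 1 (0.14) or CAST/B6 replicate 2 (0.28).

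In the convergent neighbour Sclt1 no bias passed the test. The next H3K36me3 peak, from 41638001 to 41735500 in Sclt1, gave 155 paternal and 190 maternal reads, then 116 and 126, in B6/CAST and 151 and 145, then 112 and 137, in CAST/B6, and 43 and 69, then 63 and 75, in matDKO/CAST, with a parent term of -0.16 ± 0.09 (adjusted p = 0.902). Within a library the Jade1 log2 ratio exceeded that of Sclt1 in 6 of 6 cases, by 1.15 on average with a range of 0.45 to 1.43 (exact sign-flip test, p = 0.03125, and 0.0417 adjusted over 4). Upstream, the peak over Gm40040, Gm6069 and Platr4 had 191 paternal and 147 maternal reads and that over 2400006E01Rik 237 and 165. Their parent terms of 0.57 ± 0.19 and 0.59 ± 0.17 did not pass (adjusted p = 0.269 and 0.0825).

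In epiblast, H3K36me3 ran from 41574001 to 41706000, across the end of Jade1 and into Sclt1, with 1267 paternal and 1236 maternal reads and a parent term of 0.02 ± 0.08 (adjusted p = 0.999). A second epiblast peak, from 41558501 to 41560000, held 33 allelic reads. For the informative peak edgeR called 0 imprinted, also unadjusted and by DESeq2, where 0.0361% of peaks were imprinted with the paternal and 0.0271% with the maternal allele higher. The difference of ExE minus epiblast in the Jade1 log2 ratio was 0.98, with 0.39 to 1.37 in ExE and -0.06 to 0.06 in epiblast (exact permutation test, p = 0.0286, 0.0571 adjusted over 4, and 0.0571 unadjusted without any 1 epiblast library), although the epiblast peak takes in part of Sclt1.

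**Figure D4:**
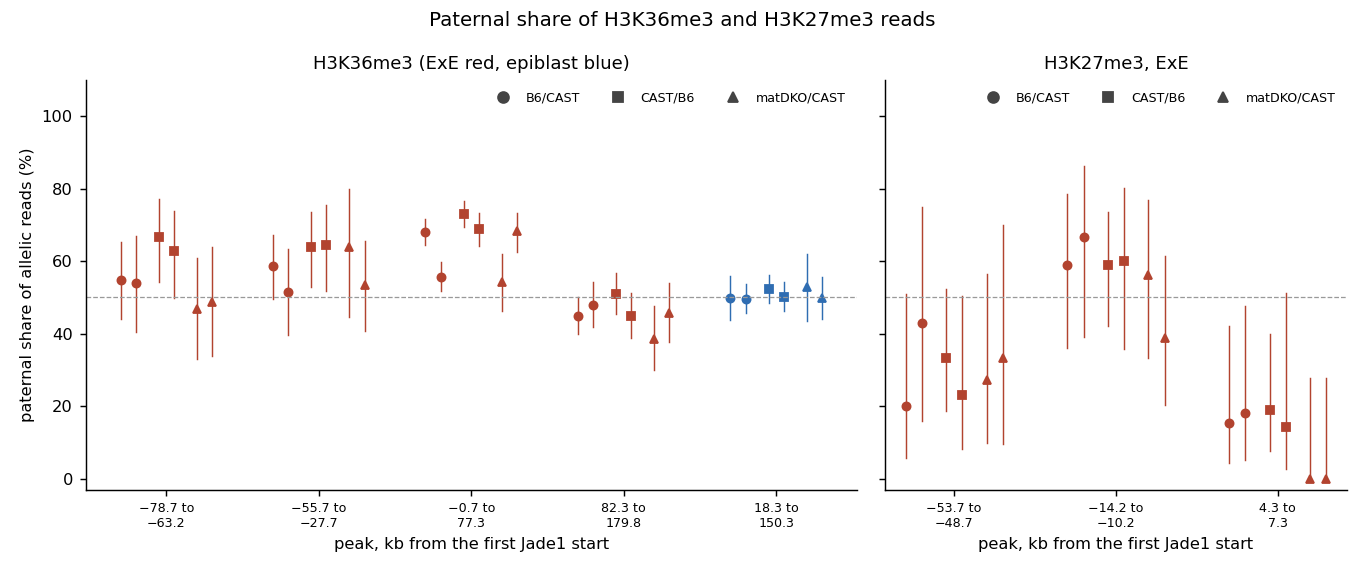
Paternal share of allelic reads in percent at the informative H3K36me3 peaks (left, ExE red and epiblast blue) and at the 3 H3K27me3 peaks of ExE (right), placed by distance in kb from the first Jade1 start, with 1 point per library and 95% Wilson intervals. H3K36me3 over Jade1 (-0.73 to 77.3 kb) lies above 50% in 6 of 6 ExE libraries, and H3K27me3 inside Jade1 (4.27 to 7.27 kb) lies at 0 to 19.0%.

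Total H3K36me3 over the Jade1 body was 2.74 and 2.87 RPKM in B6/CAST and 1.98 and 1.88 RPKM in CAST/B6 in ExE, against 1.25 and 0.917 RPKM and 1.17 and 1.10 RPKM in epiblast. Every ExE library was higher, by 2.13-fold on the means (exact permutation test, p = 0.0286, the smallest possible, and 0.114 adjusted over 12 gene and mark combinations). Sclt1 had 0.642 to 0.828 RPKM in ExE and 0.670 to 0.913 RPKM in epiblast (exact permutation test, p = 0.343). Platr4 had 0.814 to 1.22 RPKM in ExE and 0.419 to 0.646 RPKM in epiblast, and 2400006E01Rik 0.876 to 0.992 and 0.529 to 0.834 RPKM, both without overlap (exact permutation test, p = 0.0286 for each, and 0.114 adjusted over 12). Of 146 windows with at least 0.5 RPKM, 45 were above in every ExE library (30.8%, against 8.23% genome-wide) and 36 of these lay in Jade1, while 1 window was below (0.685%, against 3.11%). By limma, 3 of 3 merged peaks were higher in ExE, with log2 differences of 0.59, 0.32 and 0.34, the last for a peak from 41555001 to 41741500 that joins Jade1 and Sclt1, against a median of -0.14 over all peaks, where 22.9% of 24238 passed with ExE higher and 28.1% with ExE lower. In matDKO/CAST 0 of 3 differed from wild type in either tissue by limma or edgeR, with 0 in ExE and 1 in epiblast at an unadjusted limma p below 0.05, against 0% higher and 0.0124% lower in ExE and 0.0371 and 0.153% in epiblast.

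H3K27me3 was sparse, and inside Jade1 its reads were mostly maternal. The 3 kb peak from 41560001 to 41563000, which lies between the first and second start groups and touches Gm31266, gave 2 paternal and 11 maternal reads and then 2 and 9 in B6/CAST. CAST/B6 gave 4 and 17, then 1 and 6, and matDKO/CAST gave 0 and 10 in each library. The maternal allele was ahead in 6 of 6 libraries, with 9 paternal and 63 maternal reads in all, the opposite direction to H3K4me3 over the same gene. With 0.5 added to each count the mean log2 ratio was -2.75, and it was -1.18 with 5 added. These ratios are given with no test.

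No column of this H3K27me3 peak reached 20 reads, so it was not informative. When the filter on low counts was dropped it was imprinted with the maternal allele higher and retained, with adjusted p of 0.0295 (B6/CAST), 0.00885 (CAST/B6) and 0.00122 (matDKO/CAST). Among the 22342 peaks tested without the filter, 0.179% were imprinted in that direction and 0.0806% retained. In the informative set, 0.226% of 18592 H3K27me3 peaks were imprinted with the maternal and 1.12% with the paternal allele higher. The peak from 41502001 to 41507000, between Platr4 and 2400006E01Rik, also had more maternal reads in 6 of 6 libraries (22 paternal and 52 maternal). It was not informative, and without the filter edgeR did not call it imprinted. The only informative H3K27me3 peak, from 41541501 to 41545500, had 63 paternal and 49 maternal reads and was not imprinted by edgeR, unadjusted or by DESeq2.

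In epiblast no H3K27me3 peak was called in the stretch, yet total H3K27me3 over the 3 kb inside Jade1 was 1.01, 0.550, 1.21 and 0.749 RPKM in the 4 wild-type epiblast libraries and 0.574 to 0.757 RPKM in ExE (limma adjusted p = 0.195). Between the tissues 0 of 3 peaks passed by limma, 0 also unadjusted and 1 by edgeR (this one, -0.74, adjusted p = 0.00736), against 45.2% of 23399 peaks higher and 8.68% lower in ExE. In matDKO/CAST epiblast the signal there was 0.438 and 0.272 RPKM, below every wild-type library, a log2 difference of -0.67 ± 0.15 (adjusted p = 0.0365). In replicate 2, the H3K27me3 library with the fewest reads (3.68 M), 1 read in a window is 0.272 RPKM, so its value lies near the floor. This peak was 1 of 3 lower in matDKO/CAST epiblast, against 1.61% lower and 0.872% higher among all peaks. It did not pass without epiblast B6/CAST replicate 1 (adjusted p = 0.0619), CAST/B6 replicate 1 (0.0999) or matDKO/CAST replicate 2 (0.324), nor against B6/CAST alone (0.262) or after quantile normalization (0.0518). In ExE 0 of 3 passed, with 1 at an unadjusted p below 0.05 and 0 by edgeR, against 0.0299% higher and 0.0684% lower. Of 16 windows with at least 0.5 RPKM of H3K27me3, 0 were above and 1 was below in every wild-type ExE library, against 17.8 and 4.04% genome-wide, and that window lay at -30.2 kb.

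At the first start group itself, total H3K27me3 was 0.124 to 0.272 RPKM in wild-type ExE and 0.374 to 0.696 RPKM in epiblast, without overlap and opposite in direction to H3K4me3. The inputs there held 0.315 to 0.450 RPKM in ExE and 0.375 to 0.423 RPKM in epiblast. In matDKO/CAST, H3K27me3 there was 0.368 and 0.453 RPKM in ExE and 0.602 and 0.453 RPKM in epiblast.

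Beside other loci with retained paternal H3K4me3 in ExE, the Jade1 peak was long, with many reads and a comparatively small bias. Among the 44 peaks imprinted with the paternal allele higher, its start site peak ranked 1 by reads and 37 by the parent term, while the 2400006E01Rik and Platr4 peaks ranked 25 and 39. Gab1 encodes a signalling adaptor, Sfmbt2 a Polycomb group protein and Slc38a4 an amino acid transporter. Their peaks spanned 8.5, 20.5 and 15.5 kb, against 42 kb at Jade1, and reads were not scaled by length. The Jade1 ratio averages both start groups, which the allelic counts do not separate. The paternal and maternal reads of B6/CAST replicate 1 were 394 and 34 at Gab1, 774 and 129 at Sfmbt2 and 618 and 27 at Slc38a4. Over 6 libraries, the Jade1 log2 ratio was lower than that of Gab1 by a mean of -2.45 ± 0.76 (SD, n = 6), of Sfmbt2 by -1.41 ± 0.42 and of Slc38a4 by -2.32 ± 1.12, each in 6 of 6 libraries (exact sign-flip test, p = 0.03125 for each, the smallest possible, also after adjustment over 3). The smallest gap was that to Slc38a4 in matDKO/CAST replicate 3, at -0.66.

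**Figure D5:**
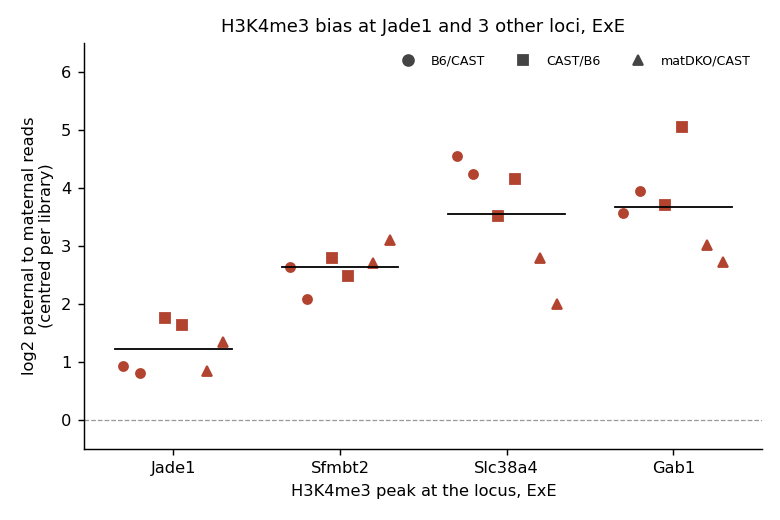
Log2 ratio of paternal to maternal H3K4me3 reads in ExE, centred on the autosomal ratio of each library (vertical axis), at the imprinted peaks of Jade1, Sfmbt2, Slc38a4 and Gab1, with 1 point per library (circles B6/CAST, squares CAST/B6, triangles matDKO/CAST) and a line at the mean. Jade1 lies below the other 3 loci in every library.

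The ExE H3K4me3 peaks with the pattern most like Jade1, by the Euclidean distance of 6 centred log2 ratios among 15457 peaks with at least 20 reads in each library, were the Platr4 peak (distance 0.68), peaks on chromosome 2 from 10310501 to 10313500 (0.76) and on chromosome 15 from 96735001 to 96737500 (0.80), the Magel2 start (0.89) and a peak in Trerf1 on chromosome 17 (1.13). Of these, the peaks at Platr4, on chromosome 2 and at Magel2, a paternally expressed imprinted gene, were imprinted. The lowest ratio of the Magel2 peak over the 6 libraries, matDKO/CAST included, was 0.71.

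No other gene of the HBO1 complex passed the test for a parental bias. The list held the catalytic subunit Kat7, the accessory subunits Meaf6, Ing4 and Ing5, and the alternative scaffolds Jade1, Jade2, Jade3, Brpf1, Brd1 and Brpf3. Of 10 genes, 9 had an informative autosomal start site peak (Jade3 is X-linked), and 1, Jade1, was imprinted. The parent terms of the other 8 had a median size of 0.08 and at most 0.17 at Brpf3 (smallest adjusted p = 0.908), where 0.431% of all informative peaks passed with the paternal allele higher. In total H3K4me3, Jade2 was lower in ExE by -0.43 on the log2 scale (limma adjusted p = 0.0463), against 18.9% of peaks, and the others did not pass.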

How the data were processed

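Native chromatin of pooled embryonic day 6.5 embryos was immunoprecipitated for H3K4me3, H3K27me3 and H3K36me3, giving 36 libraries in 18 groups of 2, with 15 inputs. Per the submitters' processing notes, the authors trimmed reads with Trim Galore 0.4.4 (the study's methods name a later version for another assay) and aligned them with Bowtie2 2.3.2 to GRCm38, and then divided them by parental SNPs. The deposited allelic tables hold raw counts of maternal and paternal reads in peaks, called by the authors for each cross in a tissue and merged across crosses. For matDKO/CAST they left out SNPs shared by 129 and CAST and added reads assigned to 129 to the maternal reads, so the mapping of its maternal allele differs from that of B6/CAST. Total signal was deposited as RPKM per 1 kb window, made by the authors from mapped reads. The score column of the authors' peak lists is 0 at every peak as deposited, so only positions were used.

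Allele counts were tested with edgeR 4.0.16 (quasi-likelihood F test, TMM factors, maternal against paternal columns of a cross), with Benjamini-Hochberg adjustment over informative autosomal peaks (20 reads or more in an allele column of a wild-type library). A joint fit of both wild-type crosses had terms for cross, strain and parent. Log2 ratios of single peaks had 0.5 added to each count and were centred on the autosomal ratio of the library. RPKM values were averaged over the windows of a peak and tested with limma 3.58.1 on log2(RPKM + 0.5), which understates changes of low values. RPKM steps gave whole reads for 100% of values (tolerance 0.01 reads), so edgeR on these reads and DESeq2 1.42.0 on the allele counts were alternatives. Exact permutation tests over libraries and exact sign-flip tests within libraries were two-sided. On simulated H3K4me3 counts of ExE, 61% of 100 peaks with a log2 ratio of 1 and 100% of those with 2 were recovered as imprinted among 23211 peaks. The changed peaks were drawn from those with many reads, at a fixed and assumed spread, so these rates do not carry over to peaks with few reads. Libraries held 0.271 to 6.82 M allelic reads in peaks. By the RPKM of 1 read, the ChIP libraries of the window table held 2.09 to 22.9 M reads.

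The peaks named are all those in the stretch, with the genes overlapping it, the HBO1 complex list, Gab1, Sfmbt2 and Slc38a4, and the 5 ExE peaks nearest in pattern. The stretch, lists and tests were chosen with earlier results of these data known, and the start groups, the single-peak comparisons between tissues, the comparisons within a library and the gene-body test after the values were seen. Replicates are separate pools of embryos as far as the labels tell, so p-values measure the spread between 2 pools a group.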

Additional observations from a re-analysis of the deposited data

Results flagged for a closer look

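The parental bias differed between tissues at the Jade1 starts, where the log2 ratio of paternal to maternal H3K4me3 was higher in ExE than in epiblast by 1.02, and over the Jade1 body, where that of H3K36me3 was higher by 0.98. Each had an exact permutation p of 0.0286, the smallest that 4 against 4 libraries can give, and 0.0571 after adjustment over 4 comparisons, as also, unadjusted, without any 1 epiblast library. For both marks the ExE and epiblast peaks compared do not cover the same stretch.

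The strain term of the joint fit passed with the B6 allele higher at 2 of 4 informative H3K4me3 peaks in ExE (against 9.65% of all), 2 of 6 in epiblast (against 3.51%) and 1 of 4 H3K36me3 peaks in ExE (against 4.37%). In ExE the strain term was 1.17 at the 2400006E01Rik start and 0.40 at the Jade1 starts for H3K4me3, and 0.23 over Jade1 for H3K36me3. Fitted over the 3 crosses together, the term at the Jade1 starts had an adjusted p of 0.0521 to 0.146 without any 1 wild-type library and 0.00321 with all. The term for H3K36me3 did not pass with DESeq2 or with the 3 crosses in 1 fit, and was 0.02 without B6/CAST replicate 2, 0.14 without CAST/B6 replicate 1 and 0.28 without CAST/B6 replicate 2. In epiblast it was 2.60 at the peak upstream of Platr4 (edgeR adjusted p = 0.00579) and 2.16 at the 2400006E01Rik start (adjusted p = 0.0266), and these did not pass without CAST/B6 replicate 2 (0.142 and 0.0777), nor the latter without CAST/B6 replicate 3 (0.0889).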

How the results depend on the processing

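Of results that answer a comparison, 179 of 208 values under another setting and 256 of 320 with a library left out kept their direction and side of the threshold (counts: stayed within 1.5 times; values with no test: moved by less than 1 SD). By this rule a fall from 3 to 2 peaks counts as kept, and so does H3K27me3 in epiblast throughout, where no peak could be tested. Allelic fits without a library took the spread from the 3 crosses together. At an adjusted p of 0.01, 1 H3K4me3 peak was retained. Without the filter on low counts 1 H3K27me3 peak was imprinted and 1 retained. With DESeq2, 2 H3K4me3 peaks were imprinted and 2 retained, and 0 H3K36me3 peaks were either. Leaving out a library gave 0 to 3 imprinted and 0 to 3 retained H3K4me3 peaks and 0 to 1 of each for H3K36me3, a B6/CAST log2 ratio at the Jade1 starts of 0.80 to 0.93, and an interaction with matDKO/CAST of -0.039 to 0.46, reversed without matDKO/CAST replicate 3. The total H3K4me3 difference at Jade1 between tissues was 0.14 to 0.47, and 0.55 after quantile normalization and 0.36 with edgeR, which passed. That between matDKO/CAST and wild type in epiblast was -0.26 to 0.10, reversed without B6/CAST replicate 1 or matDKO/CAST replicate 2. In ExE it was -0.0042 with edgeR and -0.054 against B6/CAST alone, and H3K36me3 in epiblast was 0.012 with edgeR, all reversed. Of 3 H3K27me3 peaks, the tissues differed at 0 to 1 without a library, 1 after quantile normalization and 1 with edgeR. matDKO/CAST differed at 1 in ExE after quantile normalization, and in epiblast at 0 to 1 without a library, 0 after quantile normalization and 0 against B6/CAST alone.

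Sign-flip tests on 5 or 4 libraries cannot reach 0.05, and 3 against 4 libraries can give 0.0286 at the least. Without a library, Jade1 minus Gab1 was -2.66 to -2.26, minus Sfmbt2 -1.53 to -1.32 and minus Slc38a4 -2.66 to -2.07. Within libraries, Jade1 minus Sclt1 was 1.10 to 1.29, and relative to the Jade1 starts 2400006E01Rik was 0.61 to 0.94, Platr4 -0.073 to 0.081 and the 3 kb peak -1.18 to -0.97. The H3K27me3 ratio was -2.92 to -2.46. With 4 wild-type libraries only, these were -2.78, -1.21, -2.83, 1.16, 1.01, -0.066 (reversed), -1.17 and -2.06, and with 5 added to each count Platr4 was -0.11 (reversed). With 5 added, the H3K27me3 ratio was -1.18. Between tissues, the first start group was 1.85 to 2.42, and the first minus the second 2.23 to 2.77 without a library, 2.67 and 2.29 with 0.1 and 1 added to the RPKM and 2.22 with matDKO/CAST included. Between tissues without a library, the bias at the Jade1 starts was 0.86 to 1.18, over the Jade1 body 0.85 to 1.18 and at 2400006E01Rik 0.014 to 1.31 and at Platr4 0.87 to 1.33, which passed without ExE B6/CAST replicate 2, with 5 added (0.99) and with matDKO/CAST included (0.94). The causes were not tested.

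Samples sharing a number across tissues were not paired by it, with correlations of their deviations from -0.01 to 0.35. With the replicate block, 46 of 47 results kept their call and the 3 kb H3K4me3 peak lost it (0.47, adjusted p = 0.0521). The H3K27me3 peak inside Jade1 held at most 17 reads in an allele column, which limits its precision, and no input was read by allele.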
